A study of Mus musculus with 42 samples.

Results

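This comparison sets the spleens of mice taken 9 h after an injection of CpG oligodeoxynucleotides (CpG ODN) against the spleens of untreated mice. It holds the 4 arrays labelled with the 9 h time and the 6 arrays labelled untreated, 10 of the 42 arrays of the series, and all 15277 genes that could be named from the array annotation. All mice were female BALB/c. The 9 h group received 1 intraperitoneal dose of 400 µg of a mixture of CpG ODN 1555 and 1466 in equal molar amounts, and the untreated group received no oligodeoxynucleotide. The submitters call the arrays of a group biological replicates made independently. A group given control ODN (1612 and 1471) exists at 3 h only, so at 9 h the CpG motif and the injection cannot be told apart. 4 arrays at 3 h and 4 at 24 h after CpG ODN serve below to place the 9 h values in time. Each array compared spleen cDNA with cDNA of a common mouse reference RNA, and a value is the log2 ratio of spleen over reference. The ratio says how a gene differs between spleens, and ratios of different genes were not compared as levels.

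Unmethylated CpG DNA is bound in endosomes by Toll-like receptor 9 (TLR9), which in mice is carried by B cells, dendritic cells and macrophages. The adaptor MyD88 passes the signal to NF-kB, which turns on cytokine and chemokine genes within hours, and in plasmacytoid dendritic cells to IRF7, which turns on type I interferon. Interferon then acts back on most cells of the spleen through transcription factors that include STAT2 and IRF9, and cytokines draw monocytes and neutrophils into the organ.

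Missing values per array numbered 173 to 1740 features over the 10 arrays. Correlations over genes ran from 0.824 to 0.917 within the 9 h group, from 0.865 to 0.957 within the untreated group and from 0.822 to 0.889 between the groups. Markers of the labelled organ were present on all 10 arrays: the B cell receptor subunit gene Cd79a ran from 5.46 to 5.94 at 9 h and from 4.94 to 6.36 in untreated spleens, and the spleen transcription factor gene Tlx1 from 3.86 to 4.88 and from 3.44 to 5.27. Pancreas acinar genes, 15 digestive enzyme and related genes of the neighbouring organ, varied from array to array within both groups. Their mean was 0.29, 6.28, 4.94 and 0.45 in repeats 1 to 4 at 9 h and ran from 0.39 to 5.76 in untreated spleens; 0 of 15 members passed the test of the groups (limma), and 0 had an unadjusted p below 0.05. In 16 of the named genes repeat 4 stood apart from the other 3 arrays at 9 h, and without it 1272 genes were called in place of 1289. Database numbers in the sample titles fall into 10 runs. All 4 arrays at 9 h lie in 1 run, together with 2 arrays at 3 h and 3 at 24 h, while 5 untreated arrays lie in another run and 1 lies with 2 arrays at 3 h. No run holds both 9 h and untreated arrays, so group and run are confounded in the main comparison. A fit with the run as a block rests on the 1 untreated array that lies with 3 h arrays. It links the groups through the 3 h arrays, 2 in each of these runs.

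Of 15129 genes tested, 1289 (8.52%) were called at an adjusted p below 0.05 (limma, Benjamini-Hochberg). 767 (5.07%) were higher at 9 h and 522 (3.45%) were lower. The changes upward were the larger ones: 317 genes were called higher by at least 1 on the log2 scale, 84 by at least 2 and 21 by at least 3, against 75 called lower by at least 1 and 1 by at least 2. The median difference over all tested genes was -0.02. For 671 of the 14063 genes measured on all 10 arrays (4.77%) every 9 h array lay above every untreated array, and for 578 (4.11%) every 9 h array lay below, 8.88% in all. With the run as a block, on the 12588 genes measured on all 42 arrays, 142 genes (1.13%) were called against 1151 on the same genes without it, 135 higher (1.07%) and 7 lower (0.0556%). The typical standard error of the called genes was 0.39 in that fit and 0.17 without the block. Of 1114 called genes in it, 1102 kept the sign of their difference and 137 kept the call. Differences below are 9 h minus untreated on the log2 scale, with the standard error of the fit, 4 arrays against 6. The words rose and fell are used for called genes. In bulk spleen RNA, fewer cells of a type and less RNA per cell cannot be told apart, and likewise for more.

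**Figure D1:**
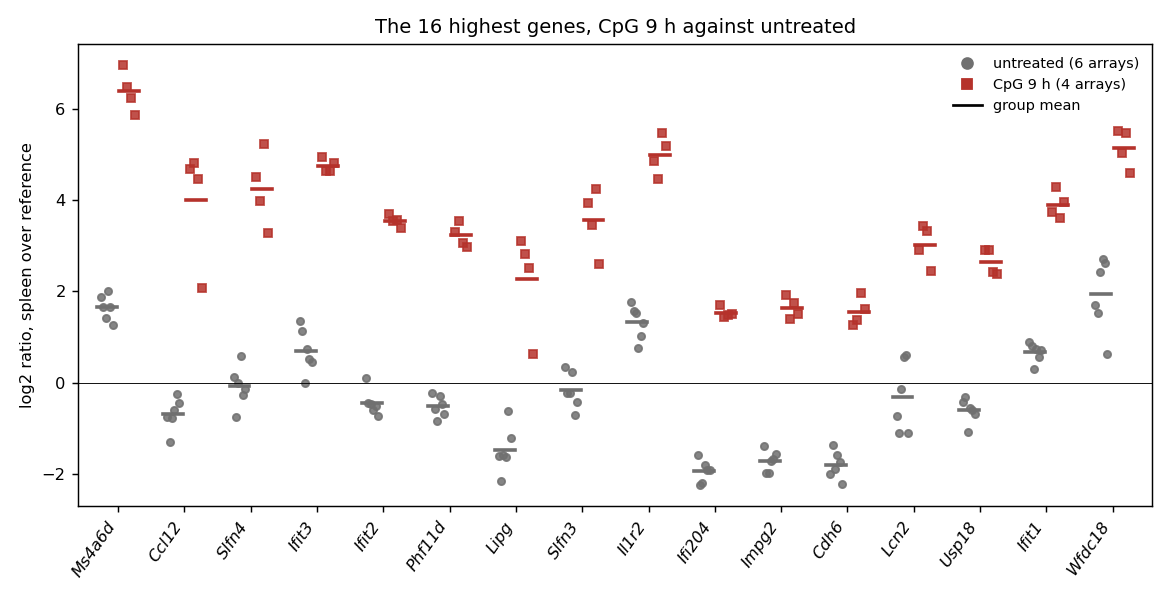
The 16 highest genes. Points are arrays (log2 ratio of spleen over reference), grey for untreated and red for CpG 9 h, and bars are group means. Genes were chosen among those whose groups do not overlap, and Ccl12 and Lipg have 1 low array at 9 h.

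The 16 highest and 16 lowest genes were chosen among called genes whose groups do not overlap, so the absence of overlap in them is a condition of choice. The highest gene was Ms4a6d, which encodes a membrane-spanning protein of monocytes and macrophages. Its log2 ratio was 6.96, 6.47, 6.24 and 5.87 in repeats 1 to 4 at 9 h and 1.25 to 2.01 (median 1.66) in untreated spleens, a difference of 4.74 ± 0.22 (adjusted p = 4.77e-19, limma). The monocyte chemokine gene Ccl12 stood at 4.67, 4.82, 4.45 and 2.08 against -1.30 to -0.24 (median -0.67), a difference of 4.69 ± 0.31 (adjusted p = 2.08e-14). Repeat 4 was the low array, and it still lay above all 6 untreated arrays. Slfn4, a schlafen gene of myeloid cells, measured 4.51, 3.98, 5.23 and 3.27 against -0.76 to 0.58 (median -0.07) (4.32 ± 0.31, adjusted p = 1.25e-13). Il1r2, the decoy receptor that binds interleukin 1 without signalling, measured 4.85, 4.45, 5.47 and 5.19 against 0.77 to 1.77 (median 1.41) (3.66 ± 0.27, adjusted p = 1.6e-13). Lcn2, the siderophore-binding protein of neutrophils and inflamed tissue, measured 2.90, 3.42, 3.32 and 2.44 against -1.11 to 0.61 (median -0.43) (3.34 ± 0.32, adjusted p = 4.74e-10). In Ms4a6d and Il1r2 the gap between the groups was wider than the spread within either, and in Ccl12 it was not. The rest of the highest 16 were the interferon-induced genes Ifit3 (4.06 ± 0.28), Ifit2 (3.99 ± 0.21), Ifit1 (3.23 ± 0.17), Phf11d (3.74 ± 0.19), Slfn3 (3.73 ± 0.25), Ifi204 (3.47 ± 0.21) and Usp18 (3.26 ± 0.24), the endothelial lipase gene Lipg (3.74 ± 0.35), the cadherin gene Cdh6 (3.35 ± 0.26), the matrix proteoglycan gene Impg2 (3.35 ± 0.22) and Wfdc18 (3.22 ± 0.32). The largest adjusted p among the 16 was 5.14e-10, and without any 1 array it was 2.06e-08. All 14 that could be fitted with the run as a block were called there too. The plot of the 16 highest genes by array shows 1 low array at 9 h in each of Ccl12 and Lipg.

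Antiviral effector genes, the best known targets of interferon, rose almost as a whole. Of 43 antiviral effector genes tested, 37 rose, against 5.07% of all genes tested, and 0 fell, with a median difference of 1.63. Ifit3, which binds with Ifit1 to RNA that lacks the host cap mark, had a log2 ratio of 4.94, 4.63, 4.64 and 4.81 at 9 h and -0.01 to 1.35 (median 0.62) in untreated spleens (adjusted p = 2.42e-14). Ifit2 measured 3.70, 3.54, 3.56 and 3.38 against -0.74 to 0.09 (median -0.48) (adjusted p = 2.16e-17). In both genes the 4 arrays at 9 h lay close together and far above the untreated arrays. Below these stood the RNA helicase gene Ddx60 (2.99 ± 0.26), Ifi44l (2.82 ± 0.32), the virus tether gene Bst2 (2.75 ± 0.16), the dynamin-like gene Mx1 (2.70 ± 0.21), the nucleotide kinase gene Cmpk2 (2.61 ± 0.20) and Oasl2 (2.51 ± 0.17). The ubiquitin-like modifier gene Isg15 (2.23 ± 0.24), the oligoadenylate synthase genes Oas2 (2.26 ± 0.14), Oas1g (2.18 ± 0.14) and Oas3 (1.14 ± 0.16) and the membrane proteins Ifitm3 (2.09 ± 0.16), Ifitm2 (1.63 ± 0.16) and Ifitm1 (1.48 ± 0.20) were raised as well. Members that did not pass the test were Ube2l6 (0.65 ± 0.38), Oas1b (0.55 ± 0.21), Isg20 (0.55 ± 0.23), Shisa5 (0.53 ± 0.24), Zc3hav1 (0.24 ± 0.10) and Ifi27 (-0.25 ± 0.17). With the run as a block 20 of 41 members were called, among them Ifit3 (3.91, adjusted p = 1.02e-04), Mx1 (3.76, adjusted p = 5.57e-07) and Bst2 (3.42, adjusted p = 3.25e-07).

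Promoter windows of Ifit3, Ifit1, Gbp2b and Ddx60 are shown because they carry the letters that interferon factors are known to bind. RefSeq windows of 300 bases around the gene start (build GRCm38.p6) were matched by symbol for 11999 of the 15129 genes tested, and searched on both strands for the core of the interferon-stimulated response element, GAAA followed by any 2 bases and again GAAA. Matches may overlap, and a gene counts when any of its windows holds the letters. Among the 16 highest genes with a window, Ifit3 (chr19:34583279-34583578, plus strand) and Ifit1 (chr19:34640639-34640938, plus strand) hold 2 matches each. Gbp2b (chr3:142594597-142594896, plus strand) and Ddx60 (chr8:61927837-61928136, plus strand) were added after their values were seen, as the next called genes by size with the letters in a window, except that Asic5, which lay between them, is not shown. Of the 16 highest genes 12 have a window and 2 of these hold the letters. Capitals mark the matches, as read from this strand.
Ifit3: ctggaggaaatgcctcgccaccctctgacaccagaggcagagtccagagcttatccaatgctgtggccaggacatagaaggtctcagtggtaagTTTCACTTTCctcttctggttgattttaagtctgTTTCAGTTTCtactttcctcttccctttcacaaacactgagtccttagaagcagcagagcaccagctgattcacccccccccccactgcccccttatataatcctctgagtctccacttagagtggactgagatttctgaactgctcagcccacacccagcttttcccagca
Ifit1: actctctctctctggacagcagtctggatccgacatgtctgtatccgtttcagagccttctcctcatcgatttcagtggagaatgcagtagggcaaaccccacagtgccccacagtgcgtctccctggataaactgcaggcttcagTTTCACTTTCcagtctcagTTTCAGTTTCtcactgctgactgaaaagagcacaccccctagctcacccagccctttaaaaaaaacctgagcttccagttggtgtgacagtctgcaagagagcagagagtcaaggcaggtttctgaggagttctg
Gbp2b: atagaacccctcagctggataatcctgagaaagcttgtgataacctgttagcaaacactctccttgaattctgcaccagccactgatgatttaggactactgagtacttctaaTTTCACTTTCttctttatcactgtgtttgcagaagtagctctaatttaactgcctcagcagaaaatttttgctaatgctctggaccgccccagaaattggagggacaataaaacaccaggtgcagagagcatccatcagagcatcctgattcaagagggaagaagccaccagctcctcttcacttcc
Ddx60: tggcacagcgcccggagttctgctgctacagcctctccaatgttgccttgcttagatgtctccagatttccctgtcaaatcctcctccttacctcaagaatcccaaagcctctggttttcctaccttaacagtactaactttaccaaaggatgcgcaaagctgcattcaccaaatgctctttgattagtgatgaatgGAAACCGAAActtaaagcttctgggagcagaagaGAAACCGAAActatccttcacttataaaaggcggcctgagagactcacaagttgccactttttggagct
In Ifit3 the matches begin at positions -156 and -122 and in Ifit1 at -104 and -85, counted from the gene start at 1. In Ddx60 they begin at -53 and -19, and in Gbp2b there is 1 at -137. The same letters stand in 3.86% of the tested genes with a window, in 12.2% of the genes called higher, in 32.9% of those called higher by at least 2 and in 4.2% of the genes called lower. Over all 32851 windows of the table the share is 3.44%. The gamma-activated site, TTC and GAA with any 3 bases between, stands in 8.74%, 10.7%, 20% and 8.64% of the same 4 sets of genes. A match is a stretch of letters, and binding was not measured.

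The large GTPases that coat and break the vacuoles of intracellular microbes rose in nearly every member, beside 5.07% of all genes. Of 9 guanylate-binding protein genes 8 rose (median 2.03), led by Gbp2b (3.18 ± 0.27), Gbp6 (2.83 ± 0.21), Gbp2 (2.77 ± 0.26) and Gbp3 (2.22 ± 0.18). Gbp2b measured 5.17, 5.51, 5.71 and 4.67 at 9 h and 1.97 to 2.24 (median 2.07) in untreated spleens, with no overlap. Of 8 immunity-related GTPase genes 7 rose (median 1.68): Iigp1 (2.69 ± 0.25), Irgm1 (2.21 ± 0.22), Igtp (2.11 ± 0.20) and Ifi47 (1.92 ± 0.22) were the largest, and the testis-type member Irgc1 did not pass the test (0.33 ± 0.13). Of 8 schlafen genes, growth-regulating proteins of lymphocytes and myeloid cells, 7 rose (median 1.46). The family spread widely, from Slfn4 (4.32 ± 0.31) and Slfn3 (3.73 ± 0.25) to Slfn8 (1.58 ± 0.24), Slfn5 (1.52 ± 0.24) and Slfn9 (1.26 ± 0.13) and to Slfn1 (0.44 ± 0.30), which was not called. Of 15 TRIM genes, which encode ubiquitin ligases, 6 rose: Trim30d (2.22 ± 0.17), Trim30a (2.17 ± 0.21), Trim12c (1.33 ± 0.17), Trim34a (1.25 ± 0.17), Trim30b (1.21 ± 0.17) and Trim25 (0.66 ± 0.16). Near-identical family members can share hybridisation on an oligonucleotide array, and their single values are uncertain to that extent. In the apolipoprotein L family 3 of 7 rose, Apol7c (2.42 ± 0.36), Apol10b (1.66 ± 0.22) and Apol9b (0.88 ± 0.18). Calls lost without some 1 array (limma) were Gbp7 (1.08 ± 0.30, adjusted p up to 0.0736), Irgm2 (1.22 ± 0.32, up to 0.0524), Tgtp1 (0.94 ± 0.24, up to 0.0717) and Slfn2 (1.40 ± 0.45, up to 0.112). The difference of Gbp7 was 0.41 with the run as a block.

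**Figure D2:**
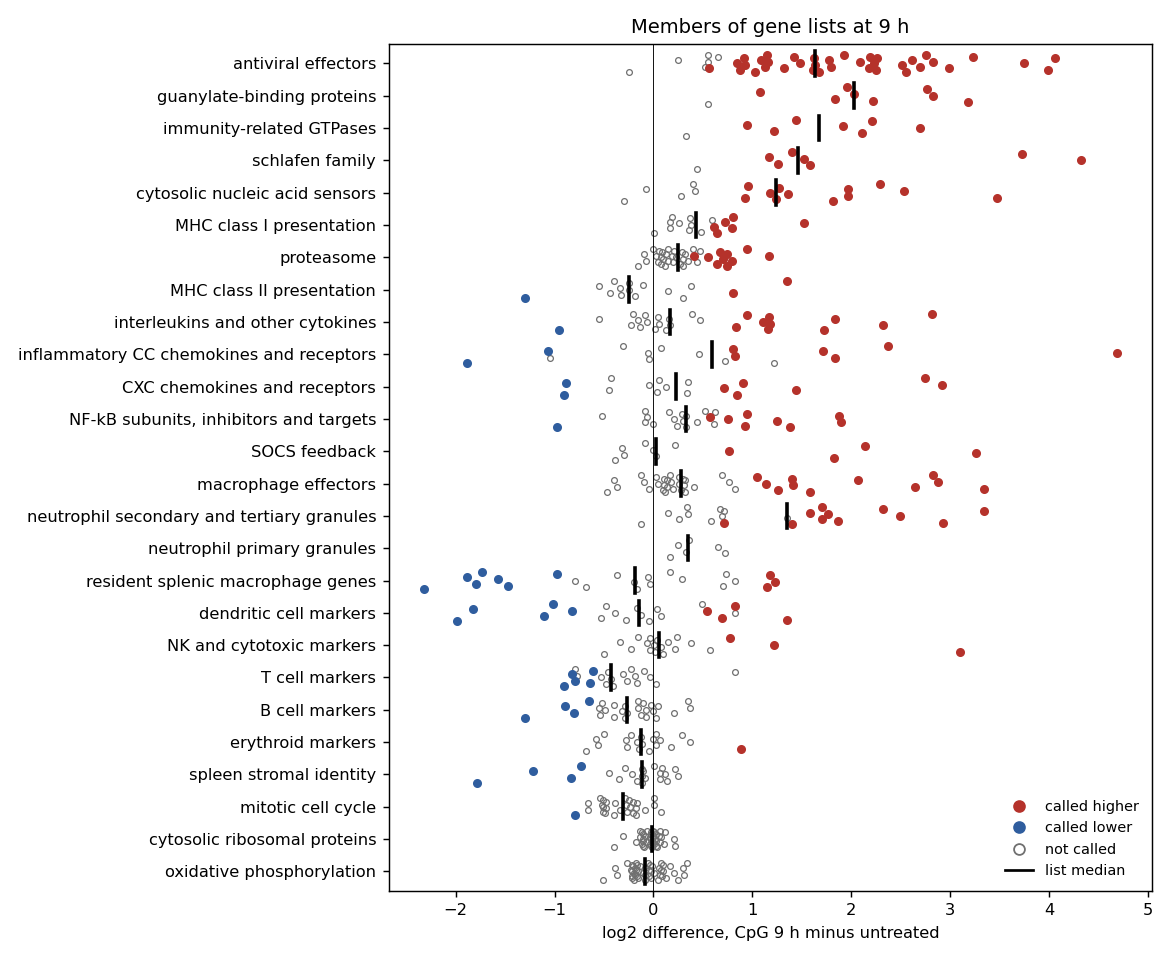
Differences between CpG 9 h and untreated spleens (log2 scale) for the members of selected gene lists. Each point is a gene, filled red where called higher, filled blue where called lower and open where not called, and black bars are list medians. Antiviral genes, GTPases and schlafen genes lie almost wholly above 0, the resident macrophage and dendritic cell lists reach down to -2.32 and -1.98, and ribosomal protein genes stay near 0.

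The plot of differences by gene list shows how the calls of the fit without a block are spread over the lists. With the run as a block fewer members were called in each list named here. Called higher were 3 of 8 guanylate-binding protein genes, 2 of 7 immunity-related GTPases, 3 of 7 schlafen genes, 3 of 12 TRIM genes and 7 of 16 cytosolic sensors, beside 1.07% of all genes. Among genes described below they were 6 of 35 macrophage effectors, 2 of 18 genes of mature neutrophils, 0 of 14 of MHC class I and 0 of 38 of the proteasome, and 3 of 21 cytokine genes. Called lower were 1 of 19 resident macrophage genes, 1 of 16 dendritic cell markers, 0 of 21 T cell markers and 0 of 23 B cell markers, beside 0.0556% of all genes. The part of the run in the calls that were lost was not tested.

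Among sensors of foreign nucleic acid, those of the cytosol rose in the larger number. Of 17 cytosolic sensor genes 12 rose and 0 fell (median 1.24), beside 5.07% higher and 3.45% lower of all genes. The p200 family members Ifi204 (3.47 ± 0.21), Ifi202b (2.53 ± 0.19), Ifi203 (1.27 ± 0.13) and Ifi205 (1.18 ± 0.13), the RNA helicase genes Ifih1 (2.29 ± 0.18), Dhx58 (1.97 ± 0.20) and Ddx58 (1.36 ± 0.16), the Z-form nucleic acid sensor gene Zbp1 (1.97 ± 0.24) and the kinase gene Eif2ak2 (1.82 ± 0.17) led. The adaptor genes of these sensors did not pass the test, Sting1 (-0.07 ± 0.20) and Mavs (-0.30 ± 0.19), nor did Cgas (0.40 ± 0.16). Of 17 Toll-like receptor and co-receptor genes 4 rose: Cd14 (1.51 ± 0.25), Tlr7 (1.15 ± 0.24), Tlr9 (0.68 ± 0.20) and Tlr3 (0.68 ± 0.22). Tlr9, the receptor for CpG DNA, measured 1.20, 1.08, 0.94 and 0.46 at 9 h and -0.03 to 0.54 (median 0.19) in untreated spleens, with an overlap of 1 array at 9 h, repeat 4 (adjusted p = 0.0235). Tlr7, the receptor for single-stranded RNA, measured 4.10, 3.90, 4.43 and 4.38 against 2.78 to 3.31 (median 3.07) with no overlap (adjusted p = 7.97e-04). The surface receptor genes Tlr1 (0.53 ± 0.24), Tlr4 (0.44 ± 0.17), Tlr2 (0.31 ± 0.25), Tlr6 (-0.09 ± 0.24) and Tlr5 (-0.30 ± 0.17) did not pass the test. In the signalling list 3 of 19 genes rose, the adaptor Myd88 (1.08 ± 0.19), the inhibitory kinase gene Irak3 (0.73 ± 0.18) and the kinase gene Ikbke (0.64 ± 0.18). The call was lost without any 1 of the repeats named in brackets for Tlr9 (untreated 1 or 9 h 1, 2 or 3, adjusted p up to 0.115), Tlr3 (untreated 1, 3, 4, 5 or 6 or 9 h 2, adjusted p up to 0.12) and Ikbke (9 h 1 or 3, adjusted p up to 0.106). The difference under the run block shrank to 0.32 in Tlr9 (adjusted p = 0.944).

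No interferon transcript passed the test at 9 h. Of 12 interferon and receptor genes 0 were called by limma and 4 had an unadjusted p below 0.05. The cytokine genes were Ifnb1 (0.21 ± 0.16), Ifng (0.35 ± 0.19), Ifna2 (0.46 ± 0.22) and Ifna5 (0.38 ± 0.17) (adjusted p = 0.518, 0.316, 0.242 and 0.181), and the receptor genes Ifnar1 (-0.31 ± 0.15), Ifnar2 (-0.47 ± 0.31) and Ifngr1 (-0.53 ± 0.56). Among the factors that act downstream, 3 of 8 IRF genes rose, Irf1 (1.22 ± 0.29), Irf7 (1.15 ± 0.23) and Irf9 (0.75 ± 0.19), beside 5.07% of all genes. Irf7 measured 3.27, 3.55, 2.82 and 2.65 at 9 h and 1.33 to 2.43 (median 1.95) in untreated spleens, with no overlap. With the run as a block the sign of Irf9 turned (-0.05, adjusted p = 0.992). In the STAT and JAK list 2 of 10 genes rose, Stat2 (1.78 ± 0.15) and Jak3 (0.79 ± 0.22). Of 11 negative feedback genes 4 rose, Usp18 (3.26 ± 0.24), Socs3 (2.14 ± 0.27), Socs1 (1.83 ± 0.18) and Socs2 (0.76 ± 0.19). Usp18, which holds back the type I interferon receptor, measured 2.90, 2.90, 2.42 and 2.38 at 9 h against -1.08 to -0.31 (median -0.58). Leaving out any 1 of the repeats named in brackets ended the call of Irf9 (9 h 2, adjusted p = 0.0858) and Jak3 (untreated 5 or 6 or 9 h 1 or 2, adjusted p up to 0.094). The run block reduced the difference to 0.67 in Irf1 (adjusted p = 0.892).

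In MHC class I presentation, genes of peptide supply and of non-classical chains rose. Counts of presentation genes stand beside 5.07% higher and 3.45% lower of all genes. Of 16 genes 6 rose: the peptide transporter genes Tap1 (1.52 ± 0.24) and Tap2 (0.80 ± 0.24), the loading factor gene Tapbpl (0.72 ± 0.16), the trimming peptidase gene Erap1 (0.64 ± 0.15) and the non-classical genes H2-T24 (0.79 ± 0.26) and H2-T22 (0.61 ± 0.15). The classical chain genes H2-K1 (0.17 ± 0.17), H2-D1 (0.16 ± 0.20) and B2m (0.37 ± 0.17) did not pass the test. Of 38 proteasome genes 10 rose (median 0.25). The list mean was 0.41, 0.45, 0.36 and -0.08 in repeats 1 to 4 at 9 h and ran from -0.12 to 0.08 in untreated spleens. Repeat 4 thus lay among the untreated arrays. Groups did not overlap in 3 of 38 members, a share near the 8.88% of all genes. The members that rose held the 3 inducible catalytic subunits of the immunoproteasome, Psmb10 (0.94 ± 0.20), Psmb9 (0.79 ± 0.23) and Psmb8 (0.74 ± 0.21), and both subunits of its activator cap, Psme2 (1.17 ± 0.28) and Psme1 (0.74 ± 0.15), together with core subunits such as Psma7 (0.71 ± 0.17) and Psma5 (0.67 ± 0.15). The constitutive catalytic subunit genes Psmb5 (0.19 ± 0.20) and Psmb7 (0.30 ± 0.17) were not called, while Psmb6 (0.55 ± 0.14) was. Not called without any 1 of the repeats in brackets were Psmb8 (9 h 1, 2 or 3, adjusted p up to 0.132), Psmb9 (9 h 1, 2 or 3, adjusted p up to 0.114), Tap2 (untreated 1, 2 or 6 or 9 h 1, 2 or 3, adjusted p up to 0.137), H2-T22 (9 h 2, adjusted p = 0.0555) and H2-T24 (untreated 1, 3, 4, 5 or 6 or 9 h 1, 2 or 4, adjusted p up to 0.181). With the run as a block the sign of H2-T24 turned (-0.003). Of 15 MHC class II genes 2 rose, the protease genes Ctsl (1.35 ± 0.21) and Lgmn (0.81 ± 0.18), and 1 fell, H2-Ob (-1.30 ± 0.28), a brake on peptide loading in B cells. The chains H2-Aa (0.38 ± 0.23), H2-Ab1 (-0.55 ± 0.26) and H2-Eb1 (-0.25 ± 0.29) and the invariant chain Cd74 (-0.34 ± 0.15) did not pass the test. Among co-stimulatory and checkpoint genes 3 of 20 rose, with the inhibitory ligand gene Cd274 (1.77 ± 0.20) and the early activation gene Cd69 (1.37 ± 0.22) ahead, and 2 fell, Havcr2 (-1.26 ± 0.24) and Cd28 (-0.80 ± 0.17). Fitted with the run block the difference was smaller, -0.50 in Cd28 (adjusted p = 0.845).

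Cytokine genes rose in part. Of 26 tested 10 rose and 1 fell, beside 5.07% higher and 3.45% lower of all genes. Il12b, the p40 subunit shared by interleukins 12 and 23, measured 3.64, 3.24, 2.97 and 3.01 at 9 h and 0.13 to 0.76 (median 0.42) in untreated spleens (2.82 ± 0.18, adjusted p = 2.5e-13), while its partners Il12a (-0.20 ± 0.20) and Il23a (-0.08 ± 0.15) did not pass the test. The anti-inflammatory gene Il10 (1.83 ± 0.20), Il1f9 (2.32 ± 0.29), Il6 (1.72 ± 0.29), Il18 (1.18 ± 0.21), Il1a (1.17 ± 0.27) and Tnf (1.16 ± 0.22), the interleukin 1 receptor antagonist gene Il1rn (1.11 ± 0.13), Il15 (0.94 ± 0.17) and Ebi3 (0.84 ± 0.18) were the others that rose. Il6 measured 0.64, 0.80, -0.94 and -0.12 against -2.12 to -0.64 (median -1.77), and repeat 3 at 9 h lay among the untreated arrays. Il1b stood at 4.59 ± 0.69 (SD, n = 4) against 4.12 ± 0.24 (SD, n = 6) and was not called. The gene that fell was the lymphocyte survival factor Il7 (-0.95 ± 0.18). Among cytokine receptor genes 3 of 27 rose: the decoy receptor Il1r2 (3.66 ± 0.27), the soluble inhibitor Il18bp (1.14 ± 0.17) and Il15ra (0.79 ± 0.10). In the TNF families 3 of 26 rose, led by the death ligand gene Tnfsf10 (1.40 ± 0.17), and 2 fell, Tnfsf13 (-0.73 ± 0.16) and Tnfrsf17 (-0.69 ± 0.18), a ligand and a receptor of plasma cell survival. Without the repeat given in brackets the call was lost for Tnfrsf17 (9 h 2, adjusted p = 0.059). The difference under the run block shrank to -0.32 in Tnfsf13 (adjusted p = 0.933).

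Chemokines for monocytes and activated T cells were high. The counts of these lists stand beside 5.07% higher and 3.45% lower of all genes. Of 16 inflammatory CC chemokine and receptor genes 6 rose, Ccl12 (4.69 ± 0.31), Ccl4 (2.38 ± 0.21), Ccl3 (1.83 ± 0.24), Ccl7 (1.71 ± 0.27), Ccl5 (0.82 ± 0.23) and Ccl2 (0.80 ± 0.25), and 2 fell, the eosinophil chemokine gene Ccl24 (-1.89 ± 0.17) and the monocyte receptor gene Ccr2 (-1.06 ± 0.34). Of 16 CXC and CX3C genes 6 rose. The ligands of CXCR3 led: Cxcl10 measured 5.28, 4.78, 5.10 and 4.08 against 1.61 to 2.07 (median 1.96) (2.92 ± 0.30, adjusted p = 9.6e-10), and Cxcl9 (2.75 ± 0.36) was close behind. The endothelial chemokine gene Cx3cl1 (1.44 ± 0.26) and the neutrophil genes Cxcl1 (0.90 ± 0.28), Cxcl2 (0.85 ± 0.21) and Cxcr2 (0.71 ± 0.18) rose less, and Cx3cr1 (-0.90 ± 0.25) and Cxcr4 (-0.89 ± 0.24) fell. Of 14 homeostatic chemokine genes of the white pulp 0 rose and 1 fell, Cxcl12 (-0.61 ± 0.16), with 6 at an unadjusted p below 0.05 (limma), while Ccl19 (0.52 ± 0.27), Ccl21a (-0.87 ± 0.30) and Cxcl13 (0.62 ± 0.38) did not pass the test. The call was lost without any 1 of the repeats named in brackets for Ccl2 (untreated 1, 3, 5 or 6 or 9 h 1 or 2, adjusted p up to 0.176), Ccl5 (9 h 2, adjusted p = 0.0695), Ccr2 (untreated 1, 2, 3 or 4 or 9 h 1, 2 or 4, adjusted p up to 0.132), Cxcl1 (untreated 1, 2 or 6, adjusted p up to 0.0771), Cxcl2 (9 h 4, adjusted p = 0.0987), Cx3cr1 (9 h 4, adjusted p = 0.0841), Cxcr4 (9 h 1 or 2, adjusted p up to 0.092) and Cxcl12 (9 h 1, adjusted p = 0.0716). The run block reduced the difference to 0.18 in Cxcr2 (adjusted p = 0.971) and -0.28 in Cxcl12 (adjusted p = 0.944).

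Of 25 NF-kB subunit, inhibitor and target genes 8 rose and 1 fell, beside 5.07% higher and 3.45% lower of all genes. Nfkbiz, an atypical inhibitor protein that also helps to induce late genes, measured 0.45, 0.55, 0.59 and 0.88 at 9 h and -1.77 to -1.03 (median -1.17) in untreated spleens (1.87 ± 0.15, adjusted p = 2.86e-12). Gadd45b (1.89 ± 0.22), Bcl2a1a (1.38 ± 0.25), Sod2 (1.25 ± 0.14) and Icam1 (0.95 ± 0.21) followed. The subunit genes Rela (-0.01 ± 0.19), Rel (-0.08 ± 0.26), Relb (0.62 ± 0.30) and Nfkb2 (0.21 ± 0.30) and the classical inhibitor gene Nfkbia (0.52 ± 0.19) did not pass the test, and the adhesion gene Vcam1 (-0.97 ± 0.23) fell. Among AP-1 and other immediate early genes 5 of 25 rose, Batf (1.27 ± 0.27), Maff (0.90 ± 0.14), Batf2 (0.87 ± 0.20), Atf3 (0.57 ± 0.16) and Myc (0.52 ± 0.13), and 1 fell, Fosb (-0.52 ± 0.15). Fos (0.45 ± 0.25), Jun (0.31 ± 0.22) and Jund (0.17 ± 0.15) did not pass the test. In the dual specificity phosphatase list 1 of 13 rose, Dusp28 (1.06 ± 0.33), a share near that of all genes. The sign of Dusp28 turned with the run as a block (-0.30). Leaving out any 1 of the repeats named in brackets ended the call of Vcam1 (9 h 2, adjusted p = 0.056), Atf3 (9 h 1, adjusted p = 0.0877), Fosb (untreated 6 or 9 h 3, adjusted p up to 0.0703) and Dusp28 (untreated 2, 3 or 4 or 9 h 1, 2 or 3, adjusted p up to 0.149). Fitted with the run block the difference was smaller, -0.09 in Fosb (adjusted p = 0.985).

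Effector genes of macrophages that rose included Fc receptor, acute phase and itaconate genes. Of 39 members 11 rose and 0 fell, beside 5.07% higher and 3.45% lower of all genes. Fcgr4, the activating receptor for IgG2 antibodies, measured 4.21, 4.08, 3.76 and 3.95 at 9 h and 0.68 to 1.85 (median 1.10) in untreated spleens (2.83 ± 0.28, adjusted p = 8.24e-10), and its signalling chain gene Fcer1g (1.41 ± 0.17) and Fcgr1 (1.14 ± 0.25) rose with it. The inhibitory receptor gene Fcgr2b (0.28 ± 0.18) and Fcgr3 (-0.47 ± 0.23) did not pass the test. The formyl peptide receptor gene Fpr2 (2.87 ± 0.75), the amyloid gene Saa3 (2.64 ± 0.25), Acod1 (2.07 ± 0.23), whose enzyme makes itaconate, the haptoglobin gene Hp (1.59 ± 0.23), Plac8 (1.40 ± 0.17), Clec4d (1.26 ± 0.25) and Msr1 (1.05 ± 0.15) and Lcn2 were the other members that rose. Nos2 (-0.37 ± 0.23), Arg1 (0.32 ± 0.28) and Ido1 (0.05 ± 0.20) were not called. The difference under the run block shrank to 0.86 in Fpr2 (adjusted p = 0.96). In the MS4A family 5 of 12 rose, Ms4a6d (4.74 ± 0.22), Ms4a6c (2.08 ± 0.26), Ms4a4d (1.88 ± 0.27), Ms4a4c (1.22 ± 0.40) and Ms4a10 (0.66 ± 0.20), while the B cell gene Ms4a1 (-0.32 ± 0.23) and the T cell gene Ms4a4b (-0.05 ± 0.30) did not pass the test. In the Ly6 family 3 of 9 rose, Ly6f (2.07 ± 0.20), Ly6c1 (1.66 ± 0.21) and Ly6e (1.00 ± 0.19). Not called without any 1 of the repeats in brackets were Ms4a4c (untreated 1, 2, 5 or 6 or 9 h 1, 3 or 4, adjusted p up to 0.204) and Ms4a10 (untreated 1 or 3 or 9 h 3 or 4, adjusted p up to 0.113).

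Part of the genes of mature neutrophils rose. Of 21 genes of secondary and tertiary granules and the mature cell 11 rose, beside 5.07% of all genes, and 0 fell (median 1.35). The collagenase gene Mmp8 measured 5.11, 4.22, 4.65 and 3.08 at 9 h and 0.67 to 1.73 (median 1.34) in untreated spleens (2.93 ± 0.38, adjusted p = 2.67e-07). The calprotectin subunit genes S100a9 (1.77 ± 0.39) and S100a8 (1.40 ± 0.26), the chitinase-like genes Chil1 (2.49 ± 0.35) and Chil3 (1.86 ± 0.32), the stefin genes Stfa2 (1.70 ± 0.49) and Stfa3 (1.70 ± 0.36) and Il1f9 (2.32 ± 0.29) rose too. Among granule protein genes, Lcn2 (3.34 ± 0.32) rose like Mmp8, while Camp (0.34 ± 0.33), Ltf (0.15 ± 0.40) and Ngp (0.58 ± 0.46) did not pass the test. Of 6 primary granule genes, which mark early precursors, 0 were called by limma and 1 had an unadjusted p below 0.05, with Mpo (0.36 ± 0.26), Elane (0.17 ± 0.22) and Prtn3 (0.33 ± 0.30). The difference between these lists was not tested. The mean of the mature list ran from 2.59 to 3.39 over the 9 h arrays and from 1.36 to 2.13 over the untreated arrays, with no overlap. 3 h after control ODN it was 2.67 (1.94 to 3.12 over 4 arrays), against group means of 1.81 in untreated spleens and 3.14 at 9 h. Without any 1 of the repeats given in brackets the call was lost for Stfa2 (untreated 5 or 6 or 9 h 1 or 3, adjusted p up to 0.168).

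Tissue proteases, complement and cell death genes rose in part, beside 5.07% higher and 3.45% lower of all genes. Among metalloproteinase genes 6 of 17 rose, Mmp8 (2.93 ± 0.38), Mmp13 (1.89 ± 0.19), Mmp3 (1.58 ± 0.23) and Mmp25 (1.27 ± 0.18) and the inhibitor genes Timp1 (0.80 ± 0.16) and Timp3 (0.67 ± 0.20), and 2 fell, Mmp12 (-1.54 ± 0.20) and Timp2 (-0.88 ± 0.26). Of 18 complement genes 6 rose, led by factor B, Cfb (1.68 ± 0.22), with C1qc (0.87 ± 0.25), C1ra (0.74 ± 0.17) and C2 (0.70 ± 0.19) and the integrin genes Itgax (0.82 ± 0.21) and Itgam (0.62 ± 0.18). Of 14 inflammasome genes 5 rose, the caspase-11 gene Casp4 (1.95 ± 0.18), the necroptosis effector gene Mlkl (1.66 ± 0.20), Pycard (0.80 ± 0.17), Gsdmd (0.77 ± 0.18) and Casp1 (0.56 ± 0.18). Nlrp3 (0.15 ± 0.15) and Nlrc4 (-0.41 ± 0.25) did not pass the test. Of 13 BCL-2 family genes 1 rose, Bcl2l14 (2.12 ± 0.26), a share near the 5.07% of all genes. Iron and haem genes split, 5 of 26 higher, with the metallothionein genes Mt2 (2.04 ± 0.25) and Mt1 (1.13 ± 0.28) and the plasma protein genes Hp (1.59 ± 0.23) and Cp (1.07 ± 0.12) next to Lcn2, and 2 lower, the iron exporter gene Slc40a1 (-1.74 ± 0.21) and the transferrin gene Trf (-1.57 ± 0.28). The call was lost without any 1 of the repeats named in brackets for Timp3 (untreated 2 or 6 or 9 h 3 or 4, adjusted p up to 0.271), Timp2 (untreated 4 or 9 h 1 or 2, adjusted p up to 0.127), C1qc (untreated 3 or 6 or 9 h 2 or 3, adjusted p up to 0.071), C2 (9 h 2, adjusted p = 0.115), Itgam (untreated 5 or 9 h 1, 3 or 4, adjusted p up to 0.15), Casp1 (untreated 1, 2, 4 or 6 or 9 h 1, 2 or 3, adjusted p up to 0.216) and Mt1 (9 h 2, adjusted p = 0.0591). The run block reduced the difference to 0.57 in Mt1 (adjusted p = 0.927).

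**Figure D3:**
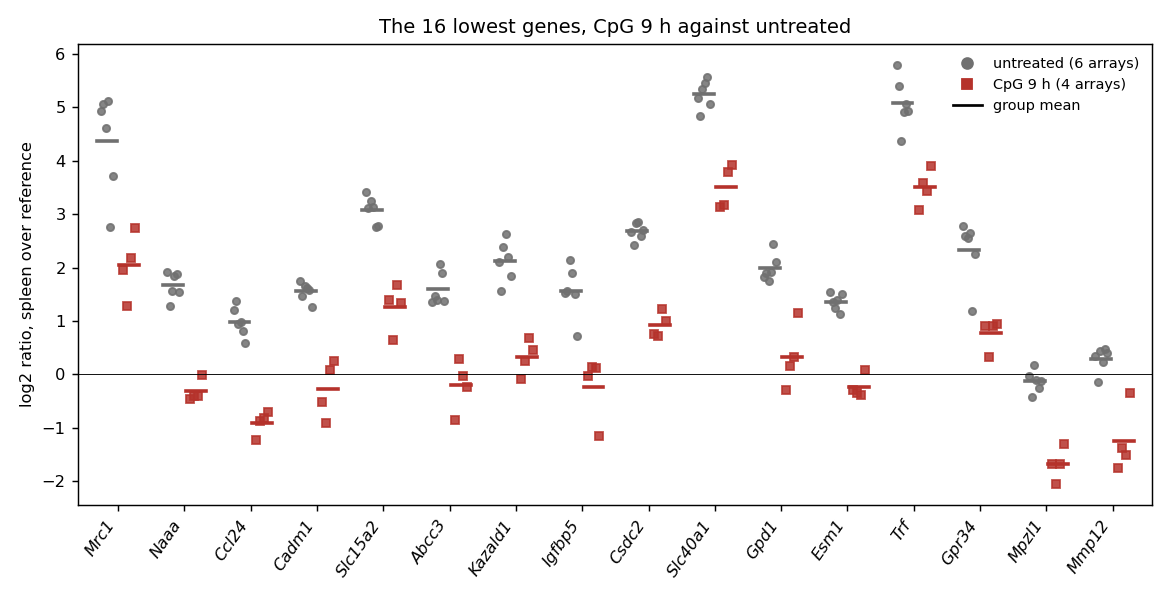
The 16 lowest genes. Points are arrays (log2 ratio of spleen over reference), grey for untreated and red for CpG 9 h, and bars are group means. Genes were chosen among those whose groups do not overlap, and Mrc1 and Gpr34 have low untreated arrays close to the 9 h arrays.

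Among the lowest genes were markers of resident macrophages, dendritic cells and stroma. Mrc1, the mannose receptor of sinusoidal cells and macrophages, measured 1.95, 1.28, 2.18 and 2.74 at 9 h and 2.76 to 5.12 (median 4.77) in untreated spleens (-2.32 ± 0.40, adjusted p = 6.21e-05). The highest 9 h array lay just below the lowest untreated array, repeat 5. Naaa, a lysosomal amidase, measured -0.46, -0.41, -0.41 and -0.01 against 1.27 to 1.91 (median 1.70) (-1.98 ± 0.20, adjusted p = 6.08e-10). Ccl24 measured -1.23, -0.87, -0.82 and -0.70 against 0.59 to 1.37 (median 0.97) (-1.89 ± 0.17, adjusted p = 5.06e-11), and the adhesion molecule gene Cadm1 -0.51, -0.91, 0.09 and 0.25 against 1.25 to 1.74 (median 1.60) (-1.83 ± 0.17, adjusted p = 6.51e-11). These 3 were separated more widely than Mrc1. The peptide transporter gene Slc15a2 (-1.81 ± 0.26), the exporter genes Abcc3 (-1.80 ± 0.23) and Slc40a1 (-1.74 ± 0.21), the growth factor binding genes Kazald1 (-1.79 ± 0.27) and Igfbp5 (-1.79 ± 0.26), Csdc2 (-1.76 ± 0.26), the glycerol phosphate dehydrogenase gene Gpd1 (-1.65 ± 0.24), the endothelial proteoglycan gene Esm1 (-1.60 ± 0.17), the transferrin gene Trf (-1.57 ± 0.28), the lipid receptor gene Gpr34 (-1.56 ± 0.36), Mpzl1 (-1.55 ± 0.19) and the macrophage elastase gene Mmp12 (-1.54 ± 0.20) completed the 16. Their largest adjusted p was 0.0027, and without any 1 array 0.0183. With the run as a block 2 of 12 were called, Ccl24 (-1.71, adjusted p = 0.00464) and Cadm1 (-1.76, adjusted p = 0.016). The difference stayed near its size without a call in Igfbp5 (-2.01), Gpd1 (-1.85) and Slc40a1 (-1.76), and shrank in Csdc2 (-0.94), Kazald1 (-1.07), Mmp12 (-1.04), Mpzl1 (-1.15), Esm1 (-1.37), Abcc3 (-1.43) and Naaa (-1.60). Adjusted p was 0.0836 in Slc40a1 and 0.769 in Csdc2.

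Resident splenic macrophage genes moved in both directions. Of 22 members 7 fell and 3 rose (median -0.18), beside 3.45% lower and 5.07% higher of all genes. Ferroportin, through which red pulp macrophages return iron from old red cells, measured 3.13, 3.17, 3.78 and 3.92 at 9 h and 4.83 to 5.57 (median 5.26) in untreated spleens (Slc40a1, adjusted p = 8.75e-08). Hpgd (-1.47 ± 0.26) and Vcam1 (-0.97 ± 0.23) fell with it, as did Mrc1, Ccl24, Abcc3 and Trf, while the red pulp factor gene Spic (1.15 ± 0.22), the oxysterol receptor gene Nr1h3 (1.23 ± 0.31) and Il18 (1.18 ± 0.21) rose. Other identity genes of resident macrophages, Timd4 (-0.79 ± 0.38), Cd163 (-0.36 ± 0.17), Marco (0.83 ± 0.37), Siglec1 (0.70 ± 0.30), Cd5l (0.73 ± 0.44) and Cd209b (-0.06 ± 0.40), did not pass the test. Dendritic cell markers were divided too, with 5 of 20 lower and 4 higher. The members that fell are known from the cross-presenting subset, Naaa (-1.98 ± 0.20), Cadm1 (-1.83 ± 0.17), Cd207 (-1.11 ± 0.27), Clec9a (-1.02 ± 0.19) and Itgae (-0.82 ± 0.17), yet its receptor gene Xcr1 (-0.28 ± 0.23) and factor genes Batf3 (0.03 ± 0.15) and Irf8 (-0.72 ± 0.31) were not called. Clec9a, which senses dead cells, measured -0.51, -0.14, -0.78 and -0.62 against 0.24 to 0.79 (median 0.48), with no overlap. The maturation gene Fscn1 (1.35 ± 0.19) and Itgax (0.82 ± 0.21) and Id2 (0.69 ± 0.14) were among those that rose, and Ccr7 (0.83 ± 0.28) did not pass the test. Of 13 plasmacytoid markers 3 rose, Bst2, Tlr7 and Tlr9, which other cells also express, and the defining gene Siglech (0.24 ± 0.24) was not called. Monocyte and macrophage markers split too, with 5 of 15 higher and 2 lower, Ccr2 and Cx3cr1. Adgre1 (0.40 ± 0.31), Lyz2 (0.02 ± 0.16) and Cd68 (-0.41 ± 0.20) did not pass the test. Leaving out any 1 of the repeats named in brackets ended the call of Vcam1 (9 h 2, adjusted p = 0.056), Nr1h3 (9 h 2, adjusted p = 0.062), Tlr9 (untreated 1 or 9 h 1, 2 or 3, adjusted p up to 0.115), Ccr2 (untreated 1, 2, 3 or 4 or 9 h 1, 2 or 4, adjusted p up to 0.132) and Cx3cr1 (9 h 4, adjusted p = 0.0841). Fitted with the run block the difference was smaller, 0.69 in Nr1h3 (adjusted p = 0.893).

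Several T and B cell markers fell, with differences from -0.61 to -1.30. Of 21 T cell markers 5 fell, against 3.45% of all genes tested, and 0 rose (median -0.43): Cd3g (-0.90 ± 0.18), Trat1 (-0.83 ± 0.18), Cd28 (-0.80 ± 0.17), Lef1 (-0.64 ± 0.18) and Bcl11b (-0.61 ± 0.16). Cd3g, a chain of the T cell receptor complex, measured 1.82, 1.17, 2.03 and 1.78 at 9 h and 2.27 to 3.15 (median 2.45) in untreated spleens. The partner genes Cd3d (-0.77 ± 0.29) and Cd3e (-0.46 ± 0.17) and the lineage genes Cd4 (-0.53 ± 0.24) and Cd8a (-0.48 ± 0.22) did not pass the test. Of 27 B cell markers 4 fell (median -0.27), H2-Ob (-1.30 ± 0.28), Cd1d1 (-0.90 ± 0.18), Fcer2a (-0.80 ± 0.21) and Cd79b (-0.65 ± 0.15), while Cd79a (-0.01 ± 0.31), Ighm (0.02 ± 0.43) and Ms4a1 (-0.32 ± 0.23) did not pass the test. Over the whole lists the array means overlapped: T cell markers ran from 1.02 to 1.46 at 9 h and from 1.38 to 1.89 in untreated spleens, and B cell markers from 2.54 to 2.77 and from 2.75 to 3.09. Of 20 natural killer and cytotoxic genes 3 rose, Gzmb (3.10 ± 0.30), Xcl1 (1.22 ± 0.35) and Klrk1 (0.77 ± 0.17), beside 5.07% of all genes. Gzmb, the granzyme that triggers caspases in target cells, measured 5.67, 5.77, 5.70 and 4.35 against 1.70 to 3.01 (median 2.09) (adjusted p = 4.42e-10), and the lineage genes Ncr1 (0.15 ± 0.31), Klrb1c (-0.50 ± 0.26), Gzma (0.22 ± 0.29) and Prf1 (0.57 ± 0.30) were not called. Of 11 plasma cell markers 1 fell, Tnfrsf17. Not called without any 1 of the repeats in brackets were Bcl11b (9 h 3 or 4, adjusted p up to 0.106), Lef1 (untreated 3 or 9 h 2, adjusted p up to 0.0712), Fcer2a (9 h 2, adjusted p = 0.0561), Xcl1 (untreated 5 or 6 or 9 h 1, 2 or 3, adjusted p up to 0.143) and Tnfrsf17 (9 h 2, adjusted p = 0.059). The difference under the run block shrank to -0.50 in Cd28 (adjusted p = 0.845), -0.54 in Cd3g (adjusted p = 0.784), -0.36 in Bcl11b (adjusted p = 0.918), -0.24 in Cd79b (adjusted p = 0.944), 0.49 in Xcl1 (adjusted p = 0.949) and 0.48 in Klrk1 (adjusted p = 0.845).

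Blood-forming, endothelial and stromal genes were also counted, beside 5.07% higher and 3.45% lower of all genes. Of 20 erythroid genes 1 rose, Sptb (0.88 ± 0.19), and 0 fell. Of 16 megakaryocyte and platelet genes 1 rose, the adhesion gene Selp (1.75 ± 0.18), and 1 fell, Fli1 (-0.55 ± 0.16). Selp is also an endothelial gene, and of 24 endothelial markers 3 rose, Lipg (3.74 ± 0.35), Selp (1.75 ± 0.18) and Icam1 (0.95 ± 0.21), and 2 fell, Tek (-1.004 ± 0.28) and Vcam1 (-0.97 ± 0.23). The lineage genes Pecam1 (0.08 ± 0.13), Cdh5 (0.40 ± 0.26) and Kdr (0.04 ± 0.26) did not pass the test. Of 22 stromal genes 4 fell and 0 rose. Tcf21, a factor needed to form the spleen, measured 4.43, 4.00, 3.99 and 4.61 against 4.63 to 5.95 (median 5.76) (-1.22 ± 0.24, adjusted p = 3.82e-04), and Igfbp5 (-1.79 ± 0.26), Igfbp3 (-0.83 ± 0.20) and Gas1 (-0.74 ± 0.20) fell as well. Among matrix genes 2 of 25 rose, the basement membrane chains Col4a1 (1.27 ± 0.18) and Col4a2 (1.06 ± 0.23), and 1 fell, Col14a1 (-1.29 ± 0.30). The run block reduced the difference to -0.05 in Col14a1 (adjusted p = 0.995). Of 13 adipocyte markers 1 fell, Lpl (-1.39 ± 0.16), while Adipoq (-0.42 ± 0.23) and Plin1 (-0.10 ± 0.28) did not pass the test. Without any 1 of the repeats given in brackets the call was lost for Fli1 (9 h 2, adjusted p = 0.128), Tek (untreated 2 or 9 h 2, adjusted p up to 0.0864), Vcam1 (9 h 2, adjusted p = 0.056), Igfbp3 (9 h 2, adjusted p = 0.0554) and Gas1 (9 h 1, adjusted p = 0.122).

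Growth genes were seldom called at 9 h and metabolic genes were called in part, beside 5.07% higher and 3.45% lower of all genes. Of 28 mitotic genes 1 fell, Kif23 (-0.80 ± 0.23), a share near that of all genes, and 0 rose, though the median of the list was -0.31. Mki67 measured 0.44, 1.11, -0.38 and 1.64 at 9 h and 0.53 to 2.52 (median 1.05) in untreated spleens (-0.51 ± 0.41, adjusted p = 0.561). Of 34 replication genes 0 were called by limma and 2 had an unadjusted p below 0.05 (median -0.21). With the run as a block both medians lay further down, at -1.04 over 27 mitotic genes and -0.80 over 34 replication genes. Of 42 ribosomal protein genes and 48 respiratory chain genes 0 were called, with 1 and 4 at an unadjusted p below 0.05 and medians of -0.02 and -0.08. Of 21 glycolysis genes 5 rose, the sugar transporter gene Slc2a6 (1.30 ± 0.24) and the enzyme genes Pfkfb3 (0.98 ± 0.19), Hk2 (0.91 ± 0.19), Pgk1 (0.57 ± 0.16) and Ldha (0.48 ± 0.15). Of 23 cholesterol genes 1 rose, Nr1h3, a share near that of all genes. Of 15 glucocorticoid-induced genes 5 rose: Lcn2, Mt2 and Mt1 as above, Fkbp5 (1.55 ± 0.34) and Cebpd (0.85 ± 0.23). Tsc22d3 (0.10 ± 0.11), Per1 (0.31 ± 0.31) and Sgk1 (-0.18 ± 0.22) did not pass the test. The mean of this list was -0.39, -0.21, -0.04 and 0.66 in repeats 1 to 4 at 9 h, repeat 4 the highest, and ran from -1.02 to -0.48 in untreated spleens. Its median difference was 0.52 over 15 members. With the run as a block it was 0.03 over 13 members, without Lcn2 and Cebpd, which had no value in that fit. Fitted with the run block the difference was smaller, 0.57 in Mt1 (adjusted p = 0.927) and 0.69 in Nr1h3 (adjusted p = 0.893). Of 17 clock genes 0 were called by limma and 4 had an unadjusted p below 0.05, with Nr1d1 (-0.03 ± 0.10), Dbp (-0.46 ± 0.18) and Arntl (-0.18 ± 0.20). The hour of sampling is not given in the labels. The call was lost without any 1 of the repeats named in brackets for Kif23 (untreated 6 or 9 h 1 or 3, adjusted p up to 0.152), Pgk1 (9 h 1 or 3, adjusted p up to 0.083), Ldha (untreated 1, 2, 4 or 6 or 9 h 1, 2 or 3, adjusted p up to 0.164), Nr1h3 (9 h 2, adjusted p = 0.062) and Mt1 (9 h 2, adjusted p = 0.0591).

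The direct comparison of 9 h with 3 h separates genes that were still higher at 3 h from genes that were higher at 9 h. Of 15115 genes tested, 44 (0.291%) were higher at 9 h than at 3 h and 174 (1.15%) were lower. The comparison shares its 9 h arrays with the comparison above. Known primary targets of NF-kB were among the genes that were lower than at 3 h though still above untreated spleens. Ccl4 measured 2.60 to 3.18 over the 3 h arrays and 0.24 to 1.46 over the 9 h arrays (-2.004 ± 0.23, adjusted p = 6.96e-07). Ccl3 differed by -1.96 ± 0.26, the lipopolysaccharide co-receptor gene Cd14 by -1.88 ± 0.28, Nfkbiz by -1.78 ± 0.17, the vasoconstrictor gene Edn1 by -1.78 ± 0.25, the gene Tnfaip3 of the inhibitor A20 by -1.67 ± 0.21, Cd69 by -1.59 ± 0.24 and Il6 by -1.58 ± 0.31. In the lists 8 of 25 NF-kB genes, 6 of 26 cytokine genes and 5 of 17 cytosolic sensors were lower at 9 h than at 3 h, beside 1 of 43 antiviral effectors and 1.15% of all genes. All 10 of the named genes that were lower than at 3 h were also called within the 1 run that holds all 9 h arrays and 2 of the 3 h arrays. In that run Ccl4 differed by -1.80 (adjusted p = 4.9e-04) and Nfkbiz by -1.80 (adjusted p = 2.22e-06), and 87 of 15031 genes were called in all. Without repeat 3 of the 3 h group 134 genes were called over all arrays. Leaving out any 1 of the repeats named in brackets ended the call of Edn1 (untreated 1, 2, 3, 4 or 6 or 9 h 1, 2, 3 or 4, adjusted p up to 0.169) and Tnfaip3 (9 h 4, adjusted p = 0.0826), against untreated spleens.

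Windows of genes called higher at 9 h and lower than at 3 h are shown for the kB site, the letters bound by NF-kB. The motif searched was GGG followed by any 3 bases and TTCC, on both strands. It stands in 6.89% of all tested genes with a window, in 7.64% of the genes called higher and in 30.6% of the 36 genes with a window that were called higher yet lower than at 3 h, 11 genes. The letters of the response element core stand in 19.4% of the same 36. Cxcl1 (chr5:90890995-90891294, plus strand), Tnfaip3 (chr10:19015361-19015660, minus strand) and Il6 (chr5:30012864-30013163, plus strand) had the largest falls among these 11, and were chosen after the values were seen. Ifit2 (chr19:34550444-34550743, plus strand) is the 1 gene of the highest 16 whose window holds the kB letters. Capitals mark the matches.
Cxcl1: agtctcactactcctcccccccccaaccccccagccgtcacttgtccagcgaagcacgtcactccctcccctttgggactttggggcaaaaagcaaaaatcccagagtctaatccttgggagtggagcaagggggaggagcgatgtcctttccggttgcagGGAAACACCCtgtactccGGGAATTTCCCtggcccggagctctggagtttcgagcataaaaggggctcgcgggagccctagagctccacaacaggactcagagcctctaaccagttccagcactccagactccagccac
Tnfaip3: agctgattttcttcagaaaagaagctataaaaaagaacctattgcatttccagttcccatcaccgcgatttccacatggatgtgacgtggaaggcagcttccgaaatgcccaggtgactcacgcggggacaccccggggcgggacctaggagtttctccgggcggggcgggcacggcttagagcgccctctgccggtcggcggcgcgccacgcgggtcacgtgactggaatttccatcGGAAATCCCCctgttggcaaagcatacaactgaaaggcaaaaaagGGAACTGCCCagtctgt
Il6: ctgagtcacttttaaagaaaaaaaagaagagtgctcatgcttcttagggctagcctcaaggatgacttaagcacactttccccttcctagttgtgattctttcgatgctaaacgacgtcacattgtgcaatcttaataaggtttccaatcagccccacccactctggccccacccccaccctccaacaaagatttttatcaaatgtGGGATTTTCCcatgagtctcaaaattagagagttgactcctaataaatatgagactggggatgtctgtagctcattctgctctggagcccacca
Ifit2: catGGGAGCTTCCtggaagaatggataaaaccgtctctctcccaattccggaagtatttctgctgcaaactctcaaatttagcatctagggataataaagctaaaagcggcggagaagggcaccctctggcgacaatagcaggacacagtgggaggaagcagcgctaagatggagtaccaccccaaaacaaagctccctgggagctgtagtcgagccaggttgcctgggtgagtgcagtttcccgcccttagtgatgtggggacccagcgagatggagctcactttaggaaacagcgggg
Cxcl1 holds 3 matches, 2 of them overlapping on opposite strands, and Tnfaip3 holds 2. Cxcl1 was -1.59 ± 0.21 at 3 h, -3.29 ± 0.67 at 9 h and -4.31 ± 0.38 at 24 h (SD, n = 4 each) against -4.19 ± 0.26 in untreated spleens (SD, n = 6). Not called without any 1 of the repeats in brackets were Cxcl1 (untreated 1, 2 or 6, adjusted p up to 0.0771) and Tnfaip3 (9 h 4, adjusted p = 0.0826).

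**Figure D4:**
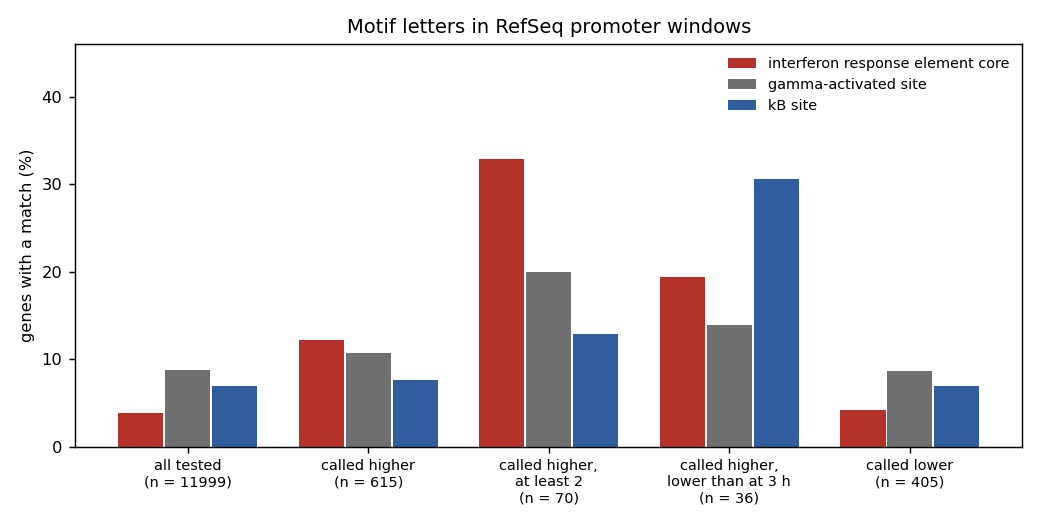
Share of genes whose RefSeq promoter window holds each motif (percent), for all genes tested and for 4 sets called in the comparisons, with the number of genes that have a window. The response element core stands at 3.86% in all genes tested and at 32.9% in genes called higher by at least 2, and the kB site reaches 30.6% in genes that were already lower than at 3 h.

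Fewer genes were higher at 9 h than at 3 h. The cell surface gene Slamf9 measured -0.35 to 0.23 at 3 h and 2.07, 1.77, 2.21 and 0.52 at 9 h (1.71 ± 0.29, adjusted p = 4.13e-04), with repeat 4 the low array. Fcgr4 rose from 2.57 ± 0.61 to 4.00 ± 0.20 (1.43 ± 0.31, adjusted p = 0.00753). Within the run, Slamf9 was called (1.84, adjusted p = 0.00714) and Fcgr4 was not (1.49, adjusted p = 0.0748). Prok2, a chemoattractant of myeloid cells, Fcgr1 and Ly6f were higher than at 3 h by 1.37 ± 0.34, 1.12 ± 0.28 and 1.03 ± 0.22, the angiogenin gene Ang2 by 1.27 ± 0.28 and the defensin gene Defa20 by 1.13 ± 0.30. A further 3 of the 10 with the largest difference upward were genes still below untreated spleens that had been lower at 3 h. Tcf21 stood at 2.84 ± 0.36 at 3 h and 4.26 ± 0.31 at 9 h against 5.47 ± 0.55 in untreated spleens, Gas1, a membrane protein of stroma, differed by 1.36 ± 0.22 and the catenin gene Arvcf by 1.14 ± 0.25. Slc40a1 belongs with them in direction (0.92 ± 0.23, adjusted p = 0.0307), and was not called within the run (0.70, adjusted p = 0.4). Of the 10 with the largest difference upward 5 were called within the run. Without the repeat given in brackets the call was lost for Gas1 (9 h 1, adjusted p = 0.122) and Arvcf (9 h 4, adjusted p = 0.0605), against untreated spleens. The difference under the run block shrank to 0.56 in Prok2 (adjusted p = 0.942), against untreated spleens.

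**Figure D5:**
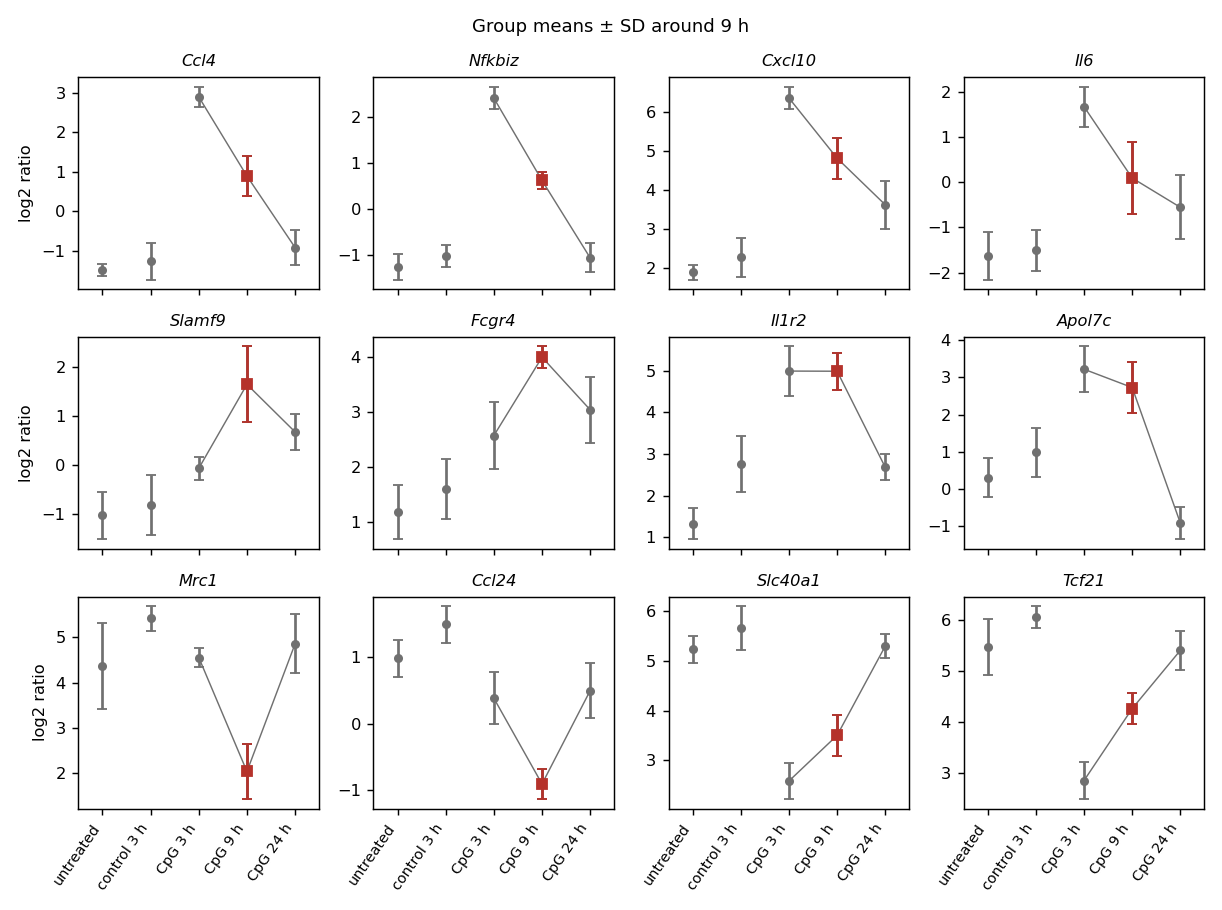
Group means ± SD (log2 ratio of spleen over reference) of 12 genes in untreated spleens (n = 6), 3 h after control ODN and 3, 9 and 24 h after CpG ODN (n = 4 each), with the 9 h group in red. The genes of the top row have their highest mean at 3 h, Slamf9 and Fcgr4 are highest at 9 h, Il1r2 and Apol7c hold to 9 h and are lower at 24 h, Mrc1 and Ccl24 are lowest at 9 h, and Slc40a1 and Tcf21 are lowest at 3 h.

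The comparison with 24 h also shares the 9 h arrays. Of 15057 genes tested, 499 (3.31%) were higher at 9 h than at 24 h and 962 (6.39%) were lower, 9.7% in all. With only these 2 groups fitted 149 genes were called, and 131 in the same fit of 9 h against 3 h. Apol7c, an apolipoprotein L gene of dendritic cells, measured 2.13, 3.67, 2.80 and 2.32 at 9 h and -1.49 to -0.48 at 24 h (3.65 ± 0.39, adjusted p = 9.56e-08), where it lay below the untreated mean of 0.31. Il1r2 was 2.31 ± 0.29 higher than at 24 h, Ccl4 1.81 ± 0.23, Acod1 1.75 ± 0.25, Nfkbiz 1.68 ± 0.17, Ccl12 1.64 ± 0.34, Slfn3 1.60 ± 0.27, Lcn2 1.60 ± 0.36, the cystatin gene Cst9 1.55 ± 0.23 and Mmp13 1.52 ± 0.21. Il12b fell from 3.21 ± 0.31 to 1.50 ± 0.46 (SD, n = 4 each). In the antiviral list 16 of 43 members were higher at 9 h than at 24 h, against 3.31% of all genes, Ifit2 by 1.17 ± 0.23 and Cmpk2 by 1.31 ± 0.22. Genes lower at 9 h than at 24 h included the hydrolase gene Cmbl (-2.94 ± 0.25), Slc15a2 (-2.34 ± 0.28), the integrin gene Itgb5 (-1.94 ± 0.25), the sialic acid lyase gene Npl (-1.88 ± 0.28), Gpd1 (-1.86 ± 0.26), the neonatal Fc receptor gene Fcgrt (-1.83 ± 0.22), Slc40a1 (-1.80 ± 0.23), Abcc3 (-1.79 ± 0.26), Kazald1 (-1.65 ± 0.29) and Tspyl4 (-1.64 ± 0.18). Slc40a1 stood at 5.30 ± 0.23 at 24 h, near its untreated 5.24 ± 0.27. Respiratory chain genes, not called against untreated spleens, were lower at 9 h than at 24 h in 23 of 48 members, against 6.39% of all genes. Their list mean ran from -0.62 to -0.22 at 9 h, with repeat 4 the lowest, and from -0.25 to 0.28 at 24 h, so the groups overlapped by 1 array at 24 h (median difference -0.55), and erythroid genes were higher in 7 of 20, against 3.31%. Within the run that holds 3 of the 24 h arrays, 1164 of 15215 genes were called. They included all 20 genes named from Apol7c to Mmp13 and from Cmbl to Tspyl4. Il12b, Ifit2 and Cmpk2 are not among these 20. The count over all arrays was 491 without repeat 3 of the 24 h group, 881 without repeat 2, 2377 without repeat 4 and 799 without repeat 4 of the 9 h group. The call was lost without any 1 of the repeats named in brackets for Npl (untreated 1 or 2 or 9 h 1 or 2, adjusted p up to 0.131), against untreated spleens.

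A small set had its extreme at 9 h, in that all 3 comparisons, with untreated, 3 h and 24 h spleens, were called in 1 direction. The comparisons share the 9 h arrays. 6 genes were highest at 9 h: Fcgr4, Slamf9, Prok2, Cts7, the inhibitory myeloid receptor gene Cd300lf and Ang2. Fcgr4 stood at 1.18 ± 0.49 in untreated spleens (SD, n = 6), 2.57 ± 0.61 at 3 h, 4.00 ± 0.20 at 9 h and 3.04 ± 0.60 at 24 h (SD, n = 4 each). 16 genes were lowest at 9 h, and the 10 largest were Mrc1, Naaa, Ccl24, Cadm1, Slc15a2, Esm1, the lipoprotein lipase gene Lpl, the integrin gene Itga8, the heparan sulfate enzyme gene Hs6st2 and Mctp1. Mrc1 stood at 4.36 ± 0.94, 4.55 ± 0.22, 2.04 ± 0.61 and 4.86 ± 0.65 in the same order. Its 9 h arrays lay below all arrays at 3 h (4.42 to 4.88) and 24 h (4.36 to 5.59). Within the run 3 of the 6 highest genes were called against 3 h and 6 against 24 h, and 6 and 8 of the 10 lowest.

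Control ODN was measured at 3 h, and its arrays give the level of the same genes after an injection without CpG. Ms4a6d stood at 2.67 ± 0.41 3 h after control ODN (SD, n = 4), Ifit3 at 0.34 ± 0.64, Cxcl10 at 2.27 ± 0.50 and Ccl12 at -0.53 ± 0.33, against 9 h means of 6.38, 4.76, 4.81 and 4.00. Il1r2 stood at 2.76 ± 0.67 against an untreated 1.33 ± 0.37 and a 9 h value of 4.99 ± 0.44, and Slfn4 at 1.49 ± 0.68 against -0.08 ± 0.44 and 4.25 ± 0.83. Mrc1 stood at 5.42 ± 0.27 and Slc40a1 at 5.66 ± 0.44. In some lists the mean after control ODN lay above the 9 h mean, and in others far below. Toll-like receptor genes stood at 1.64, against 1.25 in untreated spleens and 1.59 at 9 h. In the same order, monocyte and macrophage markers stood at 1.94, 1.48 and 1.85. Complement genes stood at 2.78, 2.48 and 2.76, and endothelial markers at 1.89, 1.47 and 1.68. Immunity-related GTPases stood at 1.69, 1.55 and 3.08, and cytosolic sensors at 0.66, 0.45 and 1.78. Times and runs differ between these groups, and no test was made.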

How the data were processed

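The deposited files hold, per the labels, 2-colour oligonucleotide arrays of mouse spleen: sample cDNA in Cy5 and common reference cDNA in Cy3. The values are log2 ratios as deposited by the authors. Their log base and direction were inferred from their range and from known spleen genes, and the image analysis, filters and normalization used by the authors were not given in the sources used here. Values were used without further normalization. Of 30601 features, 23485 with a single gene symbol in the platform annotation were averaged to 15277 genes. 6937 features had no symbol and 179 had several.

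One limma model (3.58.1, R 4.3.3) was fitted to all 42 arrays with a coefficient per group, and p-values were adjusted by Benjamini and Hochberg over all genes with at least 3 values in each group. ± is the standard error of that fit unless SD is stated. The code was tested on simulated data. No count or depth lies behind a ratio, and precision is set by how many arrays there are. Arrays are called independent replicates in the series, and spread of another origin cannot be separated from that between mice. 0 pairs of arrays held identical values.

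Named genes were the 16 highest and 16 lowest called genes measured on all 10 arrays without overlap and with features of 1 direction, up to 8 called members of each of 59 gene lists by size, members with a described role, up to 10 genes per direction against 3 h and 24 h among genes called against untreated spleens, and genes called 1 way in all 3 comparisons. Clone names and predicted genes were passed over in the first group. Members and lists were chosen with earlier results of these data known. Of 1209 listed genes 1074 were tested. Promoters are RefSeq windows of GRCm38.p6. Alternatives were another scaling, only the compared groups, array weights, other summaries, a replicate block, a run block, within-run fits, other thresholds and leaving out each array.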

Additional observations from a re-analysis of the deposited data

Results flagged for a closer look

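Among 496 sets of values checked, each 1 gene in 1 of the 2 groups, 30 (6.05%) had an array far from the rest of its group by Dixon's criterion at 95%, which chance alone gives in about 1 of 20. Of these, 19 lay in the 9 h group, 16 of them in repeat 4 and 3 in repeat 2.

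Repeat 4 at 9 h was the lowest array for the cytokine, receptor chain and effector genes Ccl12 (2.08, the others 4.45 to 4.82), Fcer1g (2.42, the others 2.96 to 3.00), Gzmb (4.35, the others 5.67 to 5.77) and Il1f9 (2.42, the others 3.73 to 3.88). It was also the lowest for the interferon-induced and cell death genes Erap1 (1.57, the others 2.07 to 2.13), Gbp4 (4.40, the others 4.95 to 5.00), Gsdmd (-0.20, the others 0.34 to 0.45), Mlkl (-0.62, the others 0.48 to 0.59), Myd88 (1.08, the others 1.56 to 1.62) and Psme1 (1.48, the others 1.72 to 1.73), and for Cmbl (-0.21, the others 1.17 to 1.29) and Igfbp5 (-1.16, the others -0.04 to 0.14). It was the highest array for Cd14 (1.87, the others -0.004 to 0.24), Cd207 (1.47, the others -0.03 to 0.20), Cxcl2 (1.76, the others 0.009 to 0.22) and Naaa (-0.006, the others -0.46 to -0.41). In Cd14, Cxcl2, Cd207 and Naaa it thus stood above the other 3 arrays, and in the other 12 genes below them. Repeat 2 at 9 h was the lowest for Chil3 (2.66, the others 3.60 to 3.77), Ddx58 (1.59, the others 2.01 to 2.06) and Gpr34 (0.33, the others 0.90 to 0.94).

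Among untreated arrays, repeat 1 was the highest for Erap1 (1.79, the others 1.10 to 1.36) and Ifit2 (0.093, the others -0.74 to -0.45). Repeat 1 was the lowest for Batf2 (0.10, the others 0.68 to 0.79). Repeat 2 was the lowest for Mctp1 (0.55, the others 1.01 to 1.27) and Nfkbiz (-1.77, the others -1.31 to -1.03). Repeat 3 was the lowest for Igfbp3 (2.04, the others 2.30 to 2.37). Repeat 4 was the highest for Atf3 (-0.47, the others -0.84 to -0.74). Repeat 5 was the highest for Cd28 (1.23, the others 0.94 to 1.03). Repeat 5 was the lowest for Gpr34 (1.19, the others 2.25 to 2.77) and Tek (1.65, the others 3.10 to 3.86). Repeat 6 was the highest for Kif23 (0.29, the others -0.61 to -0.40).

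The 9 h values also differed from those at neighbouring times by a direct test, in which the 9 h arrays are shared (limma, adjusted p below 0.05): 44 genes were higher and 174 lower than at 3 h, and 499 were higher and 962 lower than at 24 h. Outside the named genes, 273 of 6968 tested features without a single gene symbol were called against untreated spleens, 164 of them higher.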

How the results depend on the processing

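The count of 1289 genes against untreated spleens stayed within 1.5 times under median centring, scale and quantile normalization, the median of features, genes with all values, array weights, only the 2 groups fitted, a random run block and the replicate block (1039 to 1848). It was 742 at an adjusted p below 0.01, 392 with a difference of at least 1 and 142 with the run as a block (1151 on the same genes without it, a setting chosen after seeing the data), where 95.1% of calls were higher in place of 59.5%. Leaving out 1 array gave 960 to 1272. The block on replicate number gave 1039, and 238 against 3 h and 1591 against 24 h. Deviations of same-numbered arrays correlated at 0.23, -0.11, 0.39 and 0.11 (untreated), -0.01, -0.15, 0.46 and 0.31 (3 h) and 0.40, 0.01, 0.16 and 0.39 (24 h). Not every one was above 0.1, and not every array correlated best with its own number, so numbers were not taken as pairs.

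Against 3 h, 218 genes were called, 384 after scale normalization, 131 with only the 2 groups fitted, 525 with array weights, 74 with the run as a block, 87 within the run, 110 at an adjusted p below 0.01, 81 with a difference of at least 1 and 134 to 248 without 1 array. Against 24 h, 1461 were called, 149 with only the 2 groups fitted, 465 at an adjusted p below 0.01, 216 with a difference of at least 1 and 491 to 2377 without 1 array.

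Of 250 named genes, 58 lost the call without some 1 array. Of the 213 with a run-block value, 67 kept the call, 143 lost it and 3 turned sign: Dusp28 (-0.30), H2-T24 (-0.003) and Irf9 (-0.0529). The cause was not tested. The block rests on 1 untreated array, linked through the 3 h arrays, and the injection itself has no control at 9 h. Ratios to a reference give no absolute level.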

Other observations

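A list of acute phase, protease inhibitor, clotting and related genes was put together after the values were seen. In it 8 of 20 members tested rose in spleen at 9 h, against 5.07% of all genes, and 1 fell. The choice used these values, so the share is a description and no test. The acute phase genes Saa1 (0.26 ± 0.12), Saa2 (-0.05 ± 0.13), Orm1 (0.34 ± 0.19), Hpx (0.11 ± 0.17) and Itih4 (0.63 ± 0.27) were not called. Lrg1 (2.84 ± 0.31), Serpina3n (2.51 ± 0.25) and Serpina3f (2.04 ± 0.31), a leucine-rich glycoprotein and 2 protease inhibitors, were the largest beside Saa3 and Hp, and the thrombin cofactor gene Thbd (-0.84 ± 0.23) was the member that fell. Lrg1 measured 5.80, 7.20, 5.75 and 5.24 at 9 h and 2.83 to 3.71 (median 3.11) in untreated spleens, with no overlap. Of the 20, 7 were higher at 9 h than at 24 h, against 3.31% of all genes. Lysosomal hydrolase and cofactor genes, also listed after the values were seen, went the other way in part: 6 of 43 fell, against 3.45% of all genes, among them Gm2a (-1.50 ± 0.17), Lipa (-1.26 ± 0.15), Man2b1 (-1.17 ± 0.17) and Sgsh (-1.03 ± 0.17), and 1 rose, Ctsz (0.57 ± 0.15). Gm2a, a cofactor of ganglioside breakdown, measured 1.21, 0.90, 0.84 and 1.13 against 2.30 to 2.76 (median 2.51). The median of the list was -0.18, and 11 members were lower at 9 h than at 24 h, against 6.39% of all genes. Other genes outside the lists with large differences were Uchl3 (2.86 ± 0.21), Hdc (2.46 ± 0.31), Csta2 (2.41 ± 0.38) and Xdh (2.11 ± 0.19), of which Hdc makes histamine and Xdh urate.

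2 pancreatic genes of the Reg family, also picked out after their values were seen, were high on 2 arrays only. Reg3a measured -0.14, 7.51, 6.06 and 0.03 in repeats 1 to 4 at 9 h and -0.29 to 0.31 (median 0.01) in untreated spleens. Reg2 had no value in repeat 1 and measured 9.73, 6.38 and 0.04 in the others. The groups overlapped, and the calls were lost without 1 array (adjusted p up to 0.214 and 0.0898). Repeats 2 and 3 are the 9 h arrays with high acinar genes (list means 6.28 and 4.94), and untreated repeats 3 and 5, with acinar means of 5.57 and 5.76, had Reg3a at 0.10 and -0.29. The part of acinar tissue in these values was not tested.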
